A study of Mus musculus with 2 samples.

Results

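The mitochondrial respiratory chain and ATP synthase genes examined here were chosen by name, as every probe whose gene symbol, old or current, begins with Nduf, Uqcr, Atp5 or Cox4 to Cox8 or is Sdha, Sdhb, Sdhc or Sdhd. The rule found 87 of the 16390 named genes on the array, on 88 probes, and 12 of the 87 carried an older symbol there. By their known roles 79 encode structural subunits of complexes I to V and 4 encode assembly factors with such a symbol. Another 3 encode related or associated proteins, Cox7a2l (108.9% of NTG in L9 and 109.2% in L19), Ndufa4l2 (94.2% and 92.7%, but 0.22 on the log2 scale with normexp background correction) and Dmac2l, listed as Atp5s (124.5% and 121%), and Emc8, listed as Cox4nb (133% and 127%), has no respiratory role and was kept because its old symbol matches. Heart RNA was taken at an age of 3 months from male αMHC/miR-143/145 transgenic (TG) mice of the lines L9 and L19 and from nontransgenic (NTG) mice. In both lines the promoter of alpha-myosin heavy chain, which is active in cardiomyocytes, drives the human primary miR-143 and miR-145 genes. The lines were made from B6D2F1 eggs and backcrossed to C57BL/6J mice, and their mice develop a disease like dilated cardiomyopathy and die early. Each line had 1 array, on which Cy5 carried the NTG RNA and Cy3 the TG RNA, and the dyes were not swapped, so dye and genotype cannot be told apart. The NTG RNA carries the same label on both arrays and was counted as 1 control sample. The series design describes 1 control mouse and 1 TG mouse on each array, while the methods refer to an average over NTG mice.

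Complexes I and II pass electrons from NADH and succinate to ubiquinone, complex III passes them on to cytochrome c, and complex IV, cytochrome c oxidase, passes them to oxygen. Complexes I, III and IV pump protons as they do so, and complex V, ATP synthase, uses the proton gradient to make ATP. In the heart, which is among the tissues richest in mitochondria, this pathway makes most of the ATP used for contraction. All subunits of complex II and most subunits of the others are encoded in the nucleus. The catalytic core of complex IV and several membrane subunits of complexes I, III and V are encoded by mitochondrial DNA, and none of these 13 genes had a named probe.

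Of the 87 genes, 84 were above background in every channel of both arrays and are given as the log2 ratio of TG over NTG, scaled to a median ratio of 1 per array. Uqcrq, a small subunit of complex III, was above background in the NTG channels alone, at 3.69 for L9 and 1.56 for L19, and the TG signals there were 2.63 and 0.37. In L9 it was at least 1.15-fold lower, taking the detection limit for the TG side, and L19 gave no bound. Ndufaf5, an assembly factor of complex I, was at 1.87 in NTG and 4.41 in TG on the L9 array. On the L19 array it was at 3.45 in NTG and not above background in TG, at least 1.06-fold lower. Cox8c, a testis form, was not above background in any channel. These 3 genes enter no count below. Spot signals are given as blank-corrected units, on the TG side divided by the median ratio of the array. They were not scaled between the arrays. Where TG signals are said to lie clear of both NTG readings, no share of all features is given beside it.

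The respiratory genes lay mostly below NTG in both hearts. In L9, 70 of the 84 measured genes (83.3%) had a ratio below NTG, where 51.3% of all 17482 features did, and in L19, 66 (78.6%) did against 51.5%. Their median log2 ratio was -0.33 for L9 and -0.22 for L19, against -0.01 for all features on both arrays, and with normexp, a background correction that models signal plus noise, it was 0.18 as a mean of the lines. Under 1/1.5 of NTG, the fold cutoff of the methods, were 17 genes in L9 (20.2%, against 7.47% of all features) and 13 in L19 (15.5%, against 7.6%). Over 1.5-fold were 0 genes in L9 (10.6% of all features) and 1 in L19 (9.78%), the dim complex I subunit Ndufb2. As both lines were set against NTG RNA of the same label, the counts of the lines cannot be taken as independent of each other. The plot of every measured gene by complex shows that most subunits lay within 1.5-fold of NTG.

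**Figure D1:**
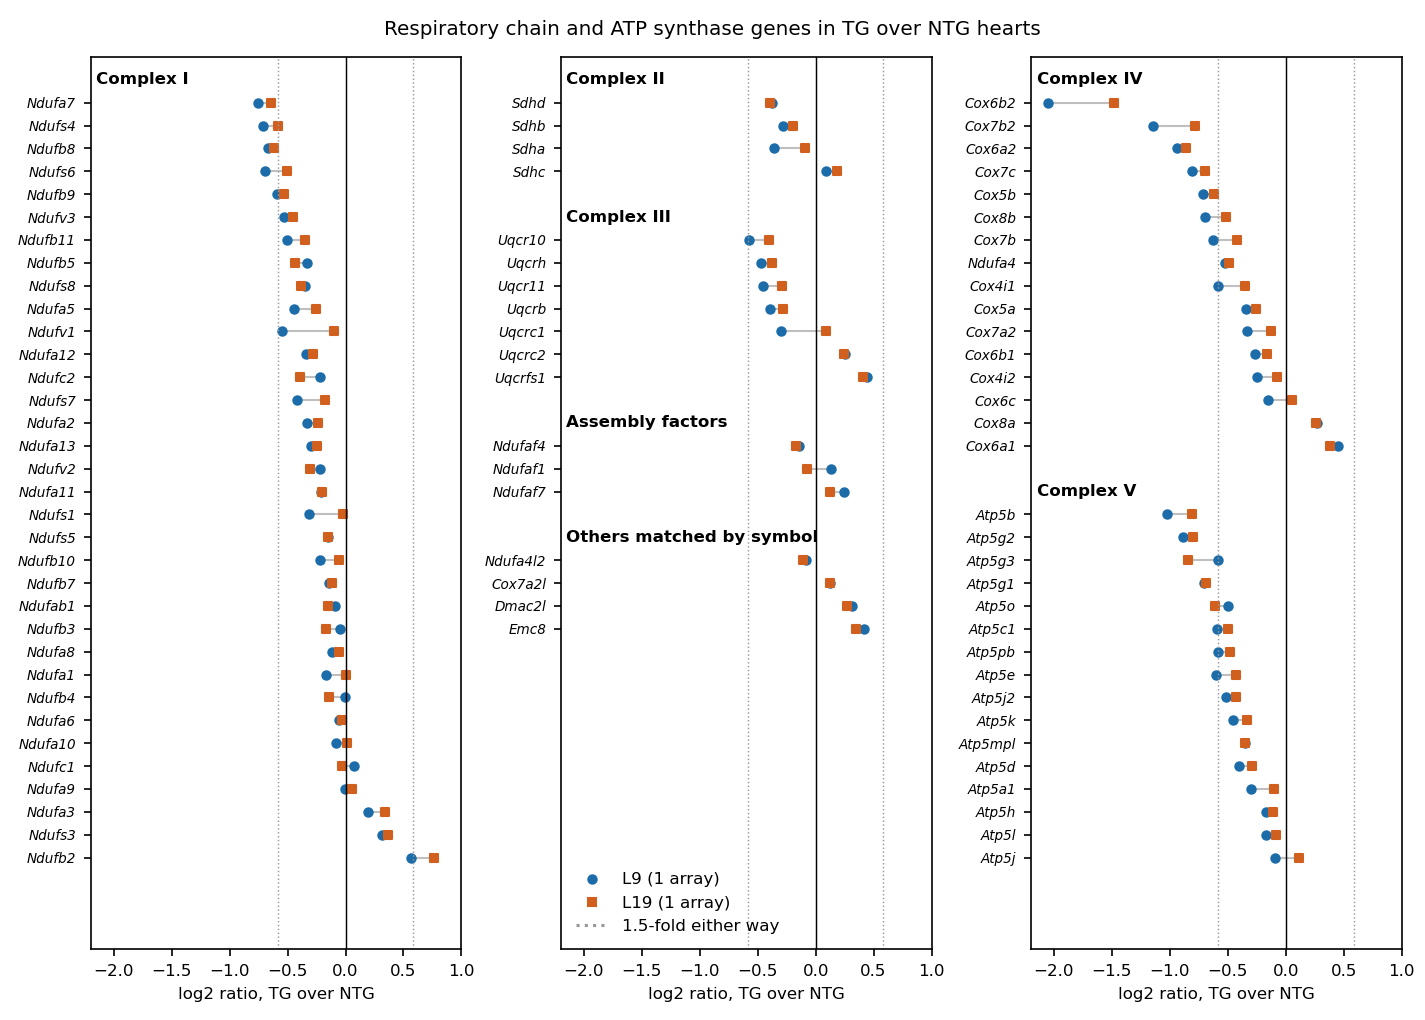
Log2 ratio of TG over NTG for each of the 84 measured genes, grouped by complex and sorted by the mean of both lines, with 1 point per line and array and no error bar. Dotted lines mark 1.5-fold either way, 17 genes lie left of the lower one in L9 and 13 in L19, and with normexp background correction 45 of the genes with a mean below NTG moved above it.

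When limma was run on the mean ratio of both lines over all 17482 features, against 0, 0 members and 0 features passed an adjusted p of 0.05 (0% of features), and the smallest adjusted p, among members as among all features, was 0.086. At an unadjusted p under 0.05, 36 members were lower (42.9%, against 14.4% of all features) and 5 higher (5.95%, against 15.7%). Allowing a trend over signal and robust estimation, limma called 43 members lower (51.2%, against 9.58%) and 7 higher (8.33%, against 10.5%) at an adjusted p under 0.05. Most members gave bright spots, 72 of the 84 being among the upper 10% of features by signal, and of these 72, 15 (20.8%) were under 1/1.5 in L9, against 7.2% of all bright features, and 11 (15.3%) in L19, against 6.58%. When limma was run on that upper 10% alone, an alternative chosen after the brightness was seen, 38 of the 72 were lower (52.8%, against 20.4% of these 1749 features) and 4 higher (5.56%, against 17.7%). The test takes each line as 1 sample of the transgene and leaves out the spread of NTG hearts and any dye effect, and the sources differ on how many mice the NTG RNA stands for, so its p-values measure only the spread between these samples.

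The ratio of all features dipped at the brightest end, where the respiratory genes lie. Among features with a mean log2 signal of 12 to 14, the 118 that are not respiratory genes had a median log2 ratio of -0.16 for L9 and -0.12 for L19, against -0.34 and -0.26 for the 48 respiratory genes. In the same range 69.5% of the other features lay below NTG in L9 and 63.6% in L19, against 91.7% and 79.2% of the respiratory genes. Under 1/1.5 were 11.9% of the other features and 20.8% of the respiratory genes in L9, and 10.2% and 8.33% in L19, so in L19 the share past the cutoff did not exceed that of other features of this brightness. At log2 signals of 10 to 12 the median of the other features was 0.00 for L9 and 0.01 for L19, and the 18 respiratory genes there had -0.33 and -0.17. Above a log2 signal of 14, where Atp5b and Atp5g3 lie, the 18 other features had medians of -0.57 for L9 and -0.52 for L19, and 50% and 44.4% of them were under 1/1.5, against -0.80 and -0.83 for those 2 genes. Loess within each array, which fits the ratio against signal, left a median of -0.15 for the members, -0.18 for L9 and -0.12 for L19. After loess the other features had a median of -0.01 at log2 signals of 12 to 14 but still -0.37 above 14. With normexp background correction and an offset of 50 the members' median turned to 0.18, but that setting put the upper 10% of features by signal at a median of 0.44. Against that median the members lay 0.26 lower on the log2 scale, the same distance as without normexp, though with loess it was 0.15. With normexp 70 of the 84 lay below it in L9 and 67 in L19. Most of the upper 10% is dimmer than most members. At log2 signals of 12 to 14 the other features had a normexp median of 0.35 and the respiratory genes 0.20. Above 14 these were -0.10 and -0.32. Directions below are relative to the array median, and normexp values are means of both lines on the log2 scale.

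**Figure D2:**
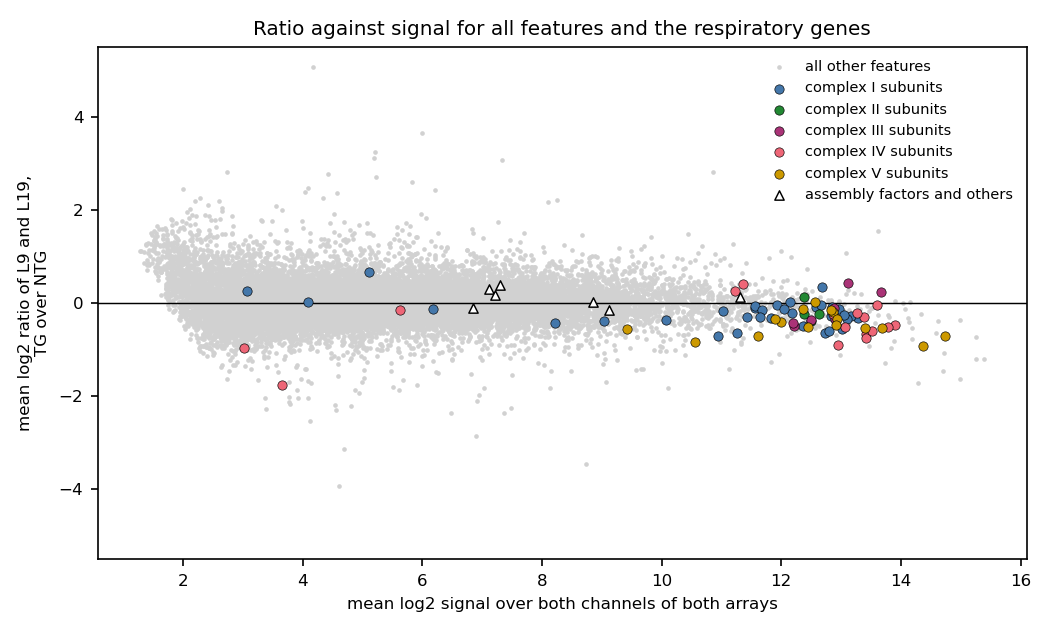
Mean log2 ratio of L9 and L19 (TG over NTG) against mean log2 signal over the 4 channels, for all other features in grey and the measured respiratory genes by complex, 1 point per gene and no error bar. At log2 signals of 12 to 14 the respiratory genes had a median of -0.29 and other features -0.14.

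**Figure D3:**
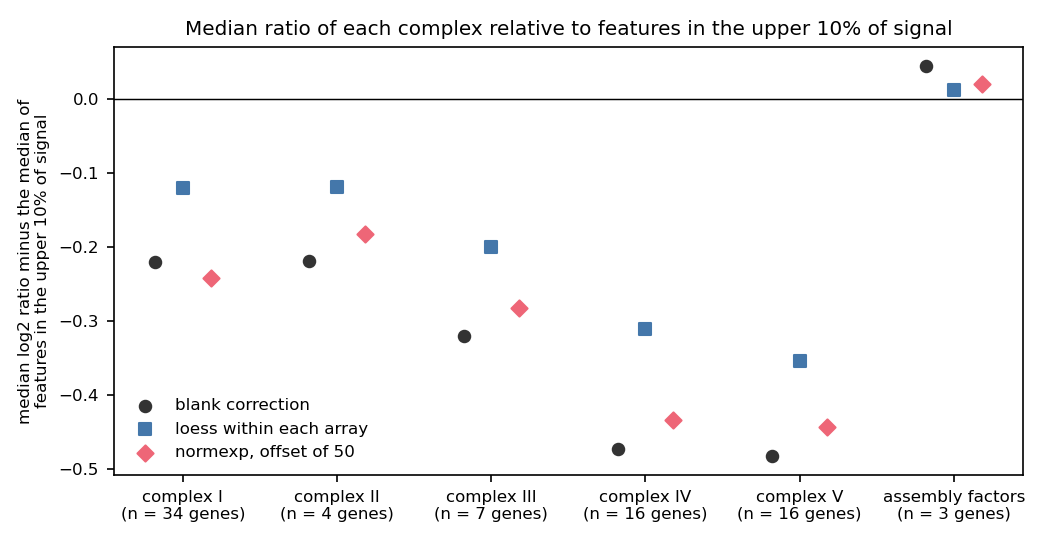
Median log2 ratio (mean of L9 and L19) of each complex and of the assembly factors with an Nduf symbol, minus the median of the upper 10% of features by signal, under 3 background corrections or normalizations. Complexes IV and V had the lowest medians and the 3 assembly factors lay near 0 under each of them, but without that subtraction normexp put every median except that of complex V at or above 0.

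Complex I, NADH dehydrogenase, was spread over both sides of NTG, with more genes below. Of its 34 subunits, all of them measured, 30 lay below NTG in L9 and 28 in L19. The median was -0.22 for L9 and -0.17 for L19 on the log2 scale. With normexp it was 0.19 as a mean of the lines, where the upper 10% of features by signal had 0.44. Past 1.5-fold lower were 5 subunits in L9 (14.7%, against 7.47% of all features) and 3 in L19 (8.82%, close to the 7.6% of all features). Limma with trend and robust estimation called 16 lower (47.1%, against 9.58%) and 2 higher (5.88%, against 10.5%). The 6 core subunits found by the rule include those that carry the flavin and the iron-sulfur clusters. They had medians of -0.33 and -0.14 (0.20 with normexp), and the 28 accessory subunits -0.22 and -0.18 (0.19 with normexp).

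The 4 lowest subunits of complex I were all accessory. Ndufa7 had NTG and TG signals of 2374 and 1407 for L9 and 2625 and 1682 for L19, or 59.3% and 64.1% of NTG. Ndufs4, a subunit close to the NADH-binding part whose loss in humans causes Leigh syndrome, had 3004 and 1838 for L9 and 3171 and 2114 for L19, 61.2% and 66.7% of NTG. In both genes the TG signals of both lines lay below both NTG readings. Ndufb8, a subunit of the membrane arm, was at 63.0% of NTG in L9 and 65.3% in L19, and Ndufs6 at 61.9% and 70.5%. The mean log2 ratio was -0.70 ± 0.08 for Ndufa7, -0.65 ± 0.09 for Ndufs4, -0.64 ± 0.04 for Ndufb8 and -0.60 ± 0.13 for Ndufs6 (SD, n = 2 lines, as for each mean below). By limma the adjusted p was 0.087, 0.092, 0.092 and 0.10 in the same order, and with trend and robust estimation 0.0021, 0.0027, 0.0022 and 0.0039. These 4 stayed below NTG with normexp, at -0.21 to -0.11.

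At the other end, Ndufs3, a core subunit of the arm that reaches into the matrix, had 5410 in NTG and 6744 in TG for L9 and 6299 and 8137 for L19. It was at 125% of NTG in L9 and 129% in L19, a log2 ratio of 0.34 ± 0.04 (limma, adjusted p = 0.15, and 0.019 with trend and robust estimation). Both TG signals were above both NTG readings. Ndufb2, a membrane arm subunit, was higher still at 148% and 170% of NTG (0.66 ± 0.14, adjusted p = 0.095 and 0.012 with trend and robust estimation), but its spots were dim, at 28.6 against 42.4 and 26.3 against 44.6. Ndufa3, also dim, had 7.66 and 8.79 for L9 and 7.61 and 9.62 for L19, and its log2 ratio of 0.27 ± 0.10 turned to -0.11 with normexp. Ndufa9 was at 99.6% and 104% (0.51 on the log2 scale with normexp). Ndufv1, the core subunit that binds NADH, was at 68.3% of NTG in L9 and 93.3% in L19, and Ndufs1, the largest iron-sulfur subunit, at 80.5% and 98.5%, and with normexp both were above the array median, at 0.16 and 0.31. Ndufs5 was the only member with more than 1 probe, and its brighter probe had -0.15 and -0.15 in the lines and the other 0.12 and 0.07, so its probes lay on opposite sides of NTG (0.33 for the gene with normexp).

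Complex II, succinate dehydrogenase, which also works in the tricarboxylic acid cycle, had 3 of 4 subunits below NTG in each line and none past 1.5-fold. Sdhd, a membrane anchor, had NTG and TG signals of 6221 and 4804 for L9 and 7004 and 5334 for L19. It was at 77.2% and 76.2% of NTG (log2 ratio -0.38 ± 0.01, limma adjusted p = 0.14, and 0.013 with trend and robust estimation, the only call in this complex). Its partner anchor Sdhc lay on the other side, with 4695 and 4996 for L9 and 5459 and 6200 for L19, 106% and 114% of NTG, and the TG signal of L9 lay between the NTG readings. The flavoprotein gene Sdha was at 77.8% of NTG in L9 and 93.6% in L19, and the iron-sulfur gene Sdhb at 82.3% and 87.1%. With normexp all 4 lay above the array median, at 0.11 for Sdhd to 0.62 for Sdhc.

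Complex III, the cytochrome bc1 complex, had genes on both sides of NTG. The 4 measured small accessory subunits lay below NTG and Uqcrfs1 and Uqcrc2 above it in both lines, though with normexp 3 of these accessory genes lay above the array median too. Uqcr10 had NTG and TG signals of 5312 and 3571 for L9 and 5943 and 4488 for L19, or 67.2% and 75.5% of NTG. Uqcrh, the hinge protein beside cytochrome c1, was at 72.3% and 77.2%, Uqcr11 at 73.2% and 82.0%, and Uqcrb, a subunit near the ubiquinone-binding site, at 76.3% and 82.4%. Uqcrfs1, the Rieske iron-sulfur protein and a catalytic subunit, had 7156 in NTG and 9711 in TG for L9 and 8212 and 10877 for L19, 136% and 132% of NTG, and both TG signals lay above both NTG readings. Uqcrc2, a core scaffold subunit, had 11199 and 13351 for L9 and 12823 and 15152 for L19, 119% and 118% of NTG. The other core subunit, Uqcrc1, was at 81.3% of NTG in L9 and 107% in L19.

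The mean log2 ratio was 0.42 ± 0.02 for Uqcrfs1 and 0.25 ± 0.01 for Uqcrc2, and from -0.49 ± 0.12 for Uqcr10 to -0.34 ± 0.08 for Uqcrb among the accessory genes. By limma the adjusted p was 0.12 for Uqcrfs1, 0.22 for Uqcrc2 and 0.12 for Uqcr10, and with trend and robust estimation 0.0089, 0.048 and 0.0077. That setting called all 4 accessory genes lower and these 2 core genes higher. Those are 57.1% and 28.6% of the 7 measured subunits, against 9.58% and 10.5% of all features. With normexp the accessory genes had 0.00 to 0.15 and the core genes found by the rule 0.38 to 0.91. Cyc1, cytochrome c1, a catalytic subunit outside the naming rule, was at -0.44 in L9 and -0.36 in L19 (limma, adjusted p = 0.13) and at 0.09 with normexp, each within the range of the accessory genes. No difference between the kinds of subunit was tested.

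Complex IV, cytochrome c oxidase, had median log2 ratios of -0.56 for L9 and -0.39 for L19, and 14 and 13 of its 16 measured subunits lay below NTG. With normexp the median was 0.00, again against 0.44 for the upper 10% of features by signal. Several of its nuclear subunits come in a heart and muscle form and a ubiquitous form, and for subunits VIa and VIII these forms lay on opposite sides of NTG. Cox6a2, the heart and muscle form of subunit VIa, had NTG and TG signals of 9391 and 4908 for L9 and 12432 and 6850 for L19, or 52.3% and 55.1% of NTG. Cox6a1, the ubiquitous form, had 2082 in NTG and 2838 in TG for L9 and 2514 and 3280 for L19, 136% and 130% of NTG. For both genes the TG signals of the lines did not overlap the NTG readings. Cox8b, the heart and muscle form of subunit VIII, which is also used in brown fat, had 13478 and 8299 for L9 and 15456 and 10797 for L19, 61.6% and 69.9% of NTG. Cox8a, its ubiquitous form, had 2255 and 2714 for L9 and 2125 and 2553 for L19, 120% and 120% of NTG, again with no overlap.

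The log2 ratio of Cox6a2 minus that of Cox6a1 was -1.38 in L9 and -1.24 in L19, so that the heart and muscle form stood 2.61 and 2.37 times lower against the ubiquitous form than in NTG. For Cox8b minus Cox8a it was -0.97 in L9 and -0.78 in L19, or 1.95 and 1.72 times lower. These differences are within 1 array and do not depend on its scaling, and with loess they were -1.23 and -0.76 and with normexp -1.29 and -0.86 as means of the lines. By limma the adjusted p was 0.086 for Cox6a2, 0.13 for Cox6a1, 0.10 for Cox8b and 0.20 for Cox8a, and with trend and robust estimation 7.2e-04, 0.011, 0.0034 and 0.046. After normexp all 4 kept their side of NTG, at -0.41, 0.89, -0.12 and 0.74. Cox7a1, the heart and muscle form of subunit VIIa, had no named probe, and its ubiquitous partner Cox7a2 was at 79.5% of NTG in L9 and 91.6% in L19 (limma, adjusted p = 0.29, and 0.26 on the log2 scale with normexp). In the same hearts the list of cardiomyocyte markers also lay below NTG, with medians of -0.49 and -0.29 (0.12 as a mean of the lines with normexp). Skeletal muscle uses the same forms. Its 7 markers on the array summed to 4646 in NTG and 3795 in TG for L9 and to 5354 and 3487 for L19. Nearly all of that was Ckm and Acta1, which the heart also expresses, and Ckm is on the cardiomyocyte list too. The median log2 ratio of the 6 measured markers was -0.01 and -0.13. The dim Myh4, Tnnt3 and Mylpf, which mark skeletal muscle, lay above NTG at mean log2 ratios of 0.28, 0.35 and 0.15. With normexp they had -0.16, -0.15 and -0.06. Tnni2, a brighter skeletal muscle marker on that list, went the other way, at -0.54 in L9 and -0.90 in L19 (-0.26 with normexp). The part of these cell types in the isoform difference was not tested.

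**Figure D4:**
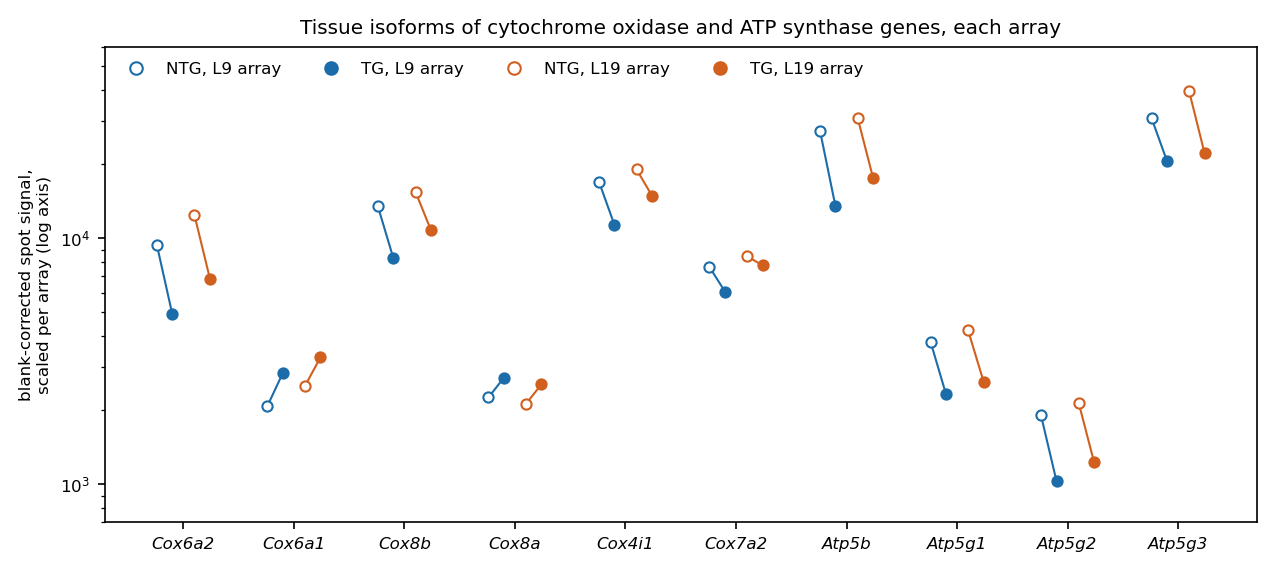
Spot signals in the NTG (open) and TG (filled) channels of the L9 and L19 arrays on a log axis, for cytochrome oxidase forms and ATP synthase genes, with 1 reading per point and no error bar. Levels are not comparable between genes, and within each gene Cox6a2, Cox8b and the Atp5 genes shown lay lower in TG than in NTG on each array while Cox6a1 and Cox8a lay higher, their mean ratios keeping these sides with normexp.

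The promoters of the forms that lay on opposite sides are shown here because they hold different short motifs. Each is RefSeq sequence of GRCm38.p6, from 250 bases before to 50 after the start site, and Cox6a2 has no entry. Capitals mark matches on either strand. The motif of ETS factors such as GABPA was searched as CCGGAAG. The motif of NRF1, a regulator of nuclear genes for mitochondria, was searched as GCGCATGC. The motif of the estrogen-related receptors, which act with PGC-1α, was searched as AAGGTCA. The motif of YY1, a zinc finger factor, was searched as AAGATGGC. The TATA box, which places the start of transcription, was searched as TATAAA.
Cox8b (chr7:140900397-140900696, minus strand): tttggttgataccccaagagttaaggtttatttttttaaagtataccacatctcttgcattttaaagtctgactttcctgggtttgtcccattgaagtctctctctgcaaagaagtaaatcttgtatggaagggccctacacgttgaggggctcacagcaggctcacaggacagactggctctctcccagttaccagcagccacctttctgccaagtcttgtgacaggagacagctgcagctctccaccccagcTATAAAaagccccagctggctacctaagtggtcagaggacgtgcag
Cox8a (chr19:7217567-7217866, minus strand): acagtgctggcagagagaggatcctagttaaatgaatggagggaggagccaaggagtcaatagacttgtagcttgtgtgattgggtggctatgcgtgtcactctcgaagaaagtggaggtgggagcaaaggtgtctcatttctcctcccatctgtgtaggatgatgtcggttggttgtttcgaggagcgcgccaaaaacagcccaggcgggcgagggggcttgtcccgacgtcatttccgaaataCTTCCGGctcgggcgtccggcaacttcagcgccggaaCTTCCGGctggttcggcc
Cox6a1 (chr5:115348909-115349208, minus strand): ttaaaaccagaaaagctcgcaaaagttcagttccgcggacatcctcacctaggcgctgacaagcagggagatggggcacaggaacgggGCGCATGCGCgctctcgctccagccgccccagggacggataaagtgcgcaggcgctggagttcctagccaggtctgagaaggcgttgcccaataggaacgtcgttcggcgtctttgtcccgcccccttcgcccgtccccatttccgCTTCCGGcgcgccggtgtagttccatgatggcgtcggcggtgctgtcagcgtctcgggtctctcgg
The promoter of Cox8b, at lower levels in the TG hearts, held 1 TATA box match and none of the other motifs. That match lies at position 5, after the annotated start site. The promoters of Cox8a and Cox6a1, at higher levels there, held 2 and 1 matches to the ETS motif and no TATA box. In Cox8a the ETS match at position 33 also lies after the start site. Without normexp, most other members with the ETS motif, such as Atp5e and Uqcrh, lay below NTG in their mean ratio. Of the 7 members with a TATA box match, all but the dim Ndufa3 also lay below NTG without normexp. With normexp Ndufa3 had -0.11. Whether a motif goes with the direction was not tested. In the Cox6a1 promoter 2 NRF1 matches overlap on a run that reads the same on both strands. Over the 71 of 87 respiratory genes with a promoter sequence, 15 (21.1%) held the ETS motif, where 9.12% of 27025 mouse promoters of this length did. The NRF1 motif was in 12 (16.9% against 2.80%), the YY1 motif in 9 (12.7% against 2.88%), the estrogen-related receptor motif in 8 (11.3% against 4.66%) and the TATA box in 7 (9.86% against 14.2%). The respiratory promoters were richer in G and C, with a median of 57.3% against 52.7% of all promoters, and the shares were not matched for this. A match is a string of letters and not a site shown to be used.

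For the other subunits of complex IV with tissue forms, all measured forms lay below NTG without normexp. Cox4i1, the ubiquitous form of subunit IV and its main form in heart, had NTG and TG signals of 17004 and 11348 for L9 and 19074 and 14905 for L19, 66.7% and 78.1% of NTG (limma, adjusted p = 0.13, and 0.0098 with trend and robust estimation, but 0.02 on the log2 scale with normexp). Its partner Cox4i2, known from lung, was at 84.4% and 95.0%, from dim spots of 44.3 to 52.5 (0.05 with normexp). Cox6b1, the ubiquitous form, was at 83.3% and 89.2% (0.27 with normexp). Cox6b2 and Cox7b2, forms known from testis, were among the dimmest members, and their NTG signals of 22.4 and 24.02 and of 10.5 and 12.3 on the L9 and L19 arrays stood against TG signals of 5.40 and 8.59 and of 4.74 and 7.16. That made Cox6b2 the member with the lowest ratio, 24.1% of NTG in L9 and 35.7% in L19 (log2 ratio -1.77 ± 0.40, and -0.52 with normexp, limma adjusted p = 0.086), and put Cox7b2 at 45.3% and 58.2% (-0.32 with normexp). The log2 ratio of Cox6b2 minus that of Cox6b1 was -1.79 in L9 and -1.32 in L19, and -0.80 as a mean of the lines with normexp. Among the subunits with a single form, Cox7c was at 57.2% and 61.5% of NTG (-0.75 ± 0.07, limma adjusted p = 0.086, -0.26 with normexp) and Cox6c at 89.8% and 104% (0.44 with normexp). Cox7b was at 64.7% and 74.9%, and Ndufa4, first described in complex I and now assigned to complex IV, at 69.4% and 71.4%, both just below the array median with normexp (-0.03 and -0.02).

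Complex V, ATP synthase, had all 16 subunits measured, of which 16 lay below NTG in L9 and 15 in L19. On the log2 scale the median was -0.51 for L9 and -0.43 for L19 (-0.01 as a mean of the lines with normexp), and limma with trend and robust estimation called 12 lower (75%, against 9.58% of all features) and 0 higher (10.5% of all features). Atp5b, the catalytic beta subunit of the F1 head, had NTG and TG signals of 27389 and 13502 for L9 and 30959 and 17633 for L19. It was at 49.3% of NTG in L9 and 57.0% in L19, a log2 ratio of -0.92 ± 0.15 (limma, adjusted p = 0.086, and 9.5e-04 with trend and robust estimation, -0.42 with normexp), and both TG signals were below both NTG readings. The alpha subunit, Atp5a1, which alternates with beta in the head, was at 81.1% and 93.1% (0.29 on the log2 scale with normexp).

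The c ring, the rotor part that protons turn, is built from 1 protein that mice encode in 3 genes with different import sequences, and all 3 lay below NTG. Atp5g1 had NTG and TG signals of 3800 and 2326 for L9 and 4225 and 2617 for L19, 61.2% and 61.9% of NTG. Atp5g2 had 1905 and 1030 for L9 and 2148 and 1230 for L19, 54.1% and 57.3%. Atp5g3 had 30822 and 20603 for L9 and 39646 and 22149 for L19, 66.8% and 55.9%, and its TG signals were alike while its NTG signal was brighter for L19. On the log2 scale Atp5g1 differed from Atp5g3 by -0.13 in L9 and 0.15 in L19, and Atp5g2 from Atp5g3 by -0.31 and 0.04. With loess these differences were -0.15 and -0.35 as means of the lines. The mean log2 ratios of the 3 genes were -0.70 ± 0.01, -0.85 ± 0.06 and -0.71 ± 0.18 (limma, adjusted p = 0.086, 0.086 and 0.095, and 0.0017, 0.0011 and 0.0025 with trend and robust estimation), and normexp left them at -0.21, -0.35 and -0.22. How far a probe also reads the RNA of the sister genes was not tested, since probe sequences were not used here. Atp5g3 and Atp5b were the only members with a raw spot over 30000, above which the scanner files hold whole numbers.

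Their promoters, given the same way, show that the 3 genes share none of the searched motifs.
Atp5g1 (chr11:96075582-96075881, minus strand): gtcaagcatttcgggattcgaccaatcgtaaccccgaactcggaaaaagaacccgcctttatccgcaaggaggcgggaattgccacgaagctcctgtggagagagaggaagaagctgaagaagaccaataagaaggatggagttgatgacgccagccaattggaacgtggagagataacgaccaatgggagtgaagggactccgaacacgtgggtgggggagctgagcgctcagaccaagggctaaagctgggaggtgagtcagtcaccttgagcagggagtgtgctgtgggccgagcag
Atp5g2 (chr15:102670998-102671297, minus strand): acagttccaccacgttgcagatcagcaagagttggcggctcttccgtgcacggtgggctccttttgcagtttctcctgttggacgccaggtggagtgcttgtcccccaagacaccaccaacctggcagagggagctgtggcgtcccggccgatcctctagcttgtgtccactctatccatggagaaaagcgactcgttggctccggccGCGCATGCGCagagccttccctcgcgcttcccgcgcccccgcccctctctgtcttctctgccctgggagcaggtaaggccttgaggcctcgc
Atp5g3 (chr2:73911277-73911576, minus strand): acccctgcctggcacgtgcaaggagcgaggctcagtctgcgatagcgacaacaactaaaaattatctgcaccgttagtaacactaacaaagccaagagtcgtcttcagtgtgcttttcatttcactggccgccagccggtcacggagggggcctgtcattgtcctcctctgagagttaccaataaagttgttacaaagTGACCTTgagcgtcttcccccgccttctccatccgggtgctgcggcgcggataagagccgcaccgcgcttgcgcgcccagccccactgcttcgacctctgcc
Only the Atp5g2 promoter held the NRF1 motif, with 2 overlapping matches, only that of Atp5g3 the estrogen-related receptor motif, and that of Atp5g1 held none.

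The 5 subunits of the F1 head and central stalk had median log2 ratios of -0.60 for L9 and -0.43 for L19 (-0.03 with normexp) and the 3 c ring genes -0.71 and -0.80 (-0.22 with normexp). The 4 peripheral stalk genes had -0.34 and -0.29, and the 4 small membrane subunits -0.40 and -0.35, and with normexp both groups turned, to 0.15 and 0.11. At the high end of complex V were Atp5j, a peripheral stalk subunit, with 5660 in NTG and 5312 in TG for L9 and 6472 and 7017 for L19, 93.8% and 108% of NTG, then Atp5l at 89.1% and 94.1% and Atp5h at 88.6% and 92.5%. These 3 were above the array median with normexp, at 0.34 to 0.50.

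The assembly factors lay around the NTG level, with a median of 0.13 for L9 and -0.07 for L19 over the 3 measured with an Nduf symbol (0.46 with normexp). Ndufaf7, an arginine methyltransferase of complex I assembly, had 137 and 162 for L9 and 143 and 155 for L19, 118% and 109% of NTG. Ndufaf1 was at 110% and 95.0%, and Ndufaf4 at 90.5% and 88.8% (0.29 with normexp), and none of the 3 reached a limma adjusted p under 0.34. Factors with other symbols were taken from lists. For complex I, 10 of 12 were on the array, medians 0.07 (L9) and 0.06 (L19), from Nubpl, which delivers iron-sulfur clusters (-0.49 ± 0.04), and Tmem126a (-0.45 ± 0.02, but 0.04 with normexp) to Lyrm2 (0.73 ± 0.27). For complex IV, 21 of 26 were, with medians of 0.29 and 0.08, and limma with trend and robust estimation called 7 higher (33.3%, against 10.5% of all features) and 1 lower (4.76%, against 9.58%). That list holds Fam162a, a hypoxia-induced mitochondrial protein that is not an established assembly factor, and without it the 20 others had medians of 0.19 and 0.02, with 6 higher and 1 lower.

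The highest on it besides Fam162a (0.75 ± 0.08) were Cmc2 (0.70 ± 0.08) and Cox19, a copper-handling factor (0.62 ± 0.15), with limma adjusted p of 0.086, 0.088 and 0.10. Cmc2 had NTG and TG signals of 417 and 705 for L9 and 499 and 778 for L19, both TG readings clear of both NTG readings. The lowest were Coa7 (-0.39 ± 0.35), Higd1a (-0.34 ± 0.18) and Cox10, the farnesyltransferase of heme a synthesis (-0.22 ± 0.09), the latter 2 at 0.14 and 0.21 with normexp. For complex II 3 of 4 factors were measured (medians 0.05 and -0.23), for complex III 5 of 6 (-0.11 and -0.11, but 0.03 with normexp) and for complex V 3 of 3 (0.18 and 0.05). Those of complex III ran from Uqcc1 (-0.49 ± 0.27) and Bcs1l, which inserts the Rieske protein (-0.40 ± 0.27), to Lyrm7, from spots of 6.45 to 12.6 (0.89 ± 0.10, and 0.03 with normexp). In complex II they ran from Sdhaf4 (-0.22 ± 0.22) to Sdhaf3 (0.09 ± 0.24), and in complex V from Atpaf2 (-0.30 ± 0.14) to Tmem70 (0.20 ± 0.18), and with normexp Sdhaf4 had 0.24 and Atpaf2 0.10. None of these lists had a call in limma over all features. Whether assembly factors and subunits differ was not tested.

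Electron carriers around complex III and genes of ubiquinone synthesis, a list that holds cytochrome c (Cycs) and also Cyc1, were spread to either side of NTG. Of the 20 measured, 10 lay below in L9 and 11 in L19 (medians -0.06 and -0.04), 0 were called by limma (at unadjusted p under 0.05, 2 higher, 10% against 15.7% of all features, and 5 lower, 25% against 14.4%). With trend and robust estimation 5 were lower (25%, against 9.58%) and 1 higher (5%, against 10.5%), and without Cyc1 4 of 19 were lower and 1 higher. Etfb, a subunit of the electron transfer flavoprotein that takes electrons from fatty acid oxidation, had 7553 in NTG and 3785 in TG for L9 and 7661 and 4768 for L19, a log2 ratio of -0.84 ± 0.22 (adjusted p = 0.088, -0.35 with normexp). Coq7 and Coq10b followed at -0.43 ± 0.10 and -0.43 ± 0.18 (0.05 and 0.03 with normexp). Pdss1, which makes the ubiquinone side chain, was highest at 0.64 ± 0.17 from spots of 8.78 to 14.9, then Sqor (0.44 ± 0.17) and Coq4 (0.30 ± 0.18). Of 20 nuclear regulators of respiratory genes all were measured, with medians of -0.12 and -0.02 (0.10 with normexp) and 0 calls by limma. At unadjusted p under 0.05, 2 were higher (10%, against 15.7% of all features) and 3 lower (15%, against 14.4%), and with trend and robust estimation 2 were higher (10%, against 10.5%) and 1 lower (5%, against 9.58%), shares near or below those of all features. Ppargc1a, the coactivator PGC-1α, had 418 in NTG and 450 in TG for L9 and 500 and 962 for L19, 0.11 and 0.94 on the log2 scale. Tfb1m (0.41 ± 0.00) and Twnk (0.36 ± 0.13), which act on mitochondrial rRNA and DNA, lay above NTG. Ppargc1b (-0.50 ± 0.47), Gabpa, a subunit of the ETS factor GABP (-0.48 ± 0.01), and Ssbp1, from dim spots of 10.4 to 16.1 (-0.45 ± 0.07), lay below. With normexp the first 2 of them had -0.07 to -0.04 and Ssbp1 -0.21.

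Cell type markers differed alongside. Of 11 cardiomyocyte markers measured, 9 lay below NTG in each line, from -0.99 to 0.39 in L9 and from -0.78 to 0.31 in L19 (median 0.12 with normexp as a mean of the lines), and their summed signal was 158165 in NTG and 99569 in TG for L9 and 166378 and 122063 for L19. Of 12 fibroblast markers, 12 lay above NTG in L9 and 11 in L19, with medians of 0.91 and 0.47 (0.96 with normexp), and their summed signal was 7003 in NTG and 12313 in TG for L9 and 8798 and 13693 for L19. Of 10 endothelial markers, 8 lay below NTG in each line, with medians of -0.34 and -0.40 (-0.01 with normexp). The remaining lists had medians between -0.54 and 0.13 in L9 and between -0.48 and -0.04 in L19. Of their markers only Lep, of adipocytes, was below background in every channel. In whole hearts, fewer cardiomyocytes and less RNA per cardiomyocyte cannot be told apart, and the part of cell makeup in the respiratory ratios was not tested.

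Between the lines no member differed by more than 1.5-fold (0 of 84). The share of all features that did so is not given here, so this is not read as particular to the members. The largest differences between L9 and L19 were those of Cox6b2 (-0.57, dim), Ndufv1 (-0.45), Uqcrc1 (-0.39), Cox7b2 (-0.36, dim) and Ndufs1 (-0.29) on the log2 scale, each lower in L9. The same NTG RNA read on both arrays differed between them with an SD of 0.13 over the members, after centring on all features, and the TG channels of the lines had an SD of 0.18. With 1 sample per line no test of the lines against each other was possible.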

How the data were processed

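The members and gene lists were chosen with earlier results of these data known. RNA from NTG and TG hearts was hybridised to 2 Toray 3D-Gene Mouse Oligo chip 24 arrays. The deposited scanner files, made with 3D-Gene Extraction, hold uncorrected, unnormalized spot intensity values for both dyes. A table of log2 ratios from the authors was recomputed to learn what it holds, which is Cy3 (TG) over Cy5 (NTG) at a median ratio of 1. Within 0.001 of that table lay 18439 of 18440 recomputed ratios for L9 and 18820 of 18821 for L19. No column of other samples was met.

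From every signal the 5% trimmed mean of that dye's 2736 blank spots was subtracted. A probe was detected above that mean plus 2 SD in both channels, and each array's ratios were divided by their median. Before scaling, the Cy3 to Cy5 median was 2.02 (L9) and 1.83 (L19). Flagged spots gave no ratio. Only arrays limit the precision, so no counting intervals apply. Platform symbols were updated through the RefSeq gene table of GRCm38.p6 (12622 current, 3947 by synonym, 62 kept, 6842 probes unnamed), and of several probes the brightest stood for a gene. The log2 ratios of both lines entered limma 3.58.1 (R 4.3.3), against 0, with Benjamini-Hochberg adjustment over 17482 features. The step was tested on simulated data. The other computations used Python 3.11.15, numpy 2.4.6 and pandas 2.3.3. The spread of the control enters no p.

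Named genes were every member of complexes II and III, the 4 highest and 4 lowest subunits of complexes I, IV and V, the 3 highest and lowest assembly factors, all tissue forms, members with a bound only, the 5 that differ most between lines and up to 3 genes at each end of a list. Cyc1, Cycs, Emc8, Dmac2l and Ndufs5 and the markers were chosen after their values were seen. The alternatives tried were loess, normexp with an offset of 50, the deposited table, each probe apart, the upper 50% of signal, saturated spots left out, limma with trend and robust estimation, a 2-fold cutoff, each line alone and structural subunits alone. The upper 10% of signal, leaving out spots over 30000 and the lists without Fam162a or Cyc1 were added after values were seen.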

Additional observations from a re-analysis of the deposited data

Results flagged for a closer look

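In 8 members the lines lay on opposite sides of NTG, a difference that was not tested with 1 array per line, and all 8 differences were smaller than 1.5-fold. On the log2 scale L9 minus L19 was -0.39 for Uqcrc1, the core scaffold subunit of complex III, at 81.3% of NTG in L9 and 107% in L19. It was -0.21 for Cox6c of complex IV, -0.21 for Atp5j of the ATP synthase stalk and -0.17 for Ndufa1, -0.10 for Ndufa10 and -0.0655 for Ndufa9 of complex I, each lower in L9. It was 0.11 for Ndufc1, from spots of 15.8 to 17.9, and 0.21 for the assembly factor Ndufaf1, both lower in L19. Between the arrays the NTG readings of Uqcrc1 differed by 0.01 and its TG readings by 0.40 after centring on all features, those of Cox6c by -0.14 and 0.07, and those of Ndufaf1 by -0.15 and -0.35.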

How the results depend on the processing

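The members' median log2 ratio of -0.28 was -0.15 with loess and 0.18 with normexp and its offset of 50, and stayed within the spread of the lines under the remaining alternatives. With loess the medians were -0.20 for subunits, -0.12 for complex I, -0.20 for complex III, -0.31 for complex IV, -0.35 for complex V and 0.18 for the associated genes, with 2 members over 1.5-fold and 9 under 1/1.5 in L9. The difference of Cox4i2 from Cox4i1 was 0.14 and that of Atp5g1 from Atp5g2 was 0.20. With normexp they were 0.14 for subunits, 0.19, 0.25, 0.15, 0.0019 and -0.0079 for complexes I to V, 0.46 for assembly factors and 0.54 for associated genes, and the difference of Cox4i2 from Cox4i1 was 0.033 and that of Cox6b2 from Cox6b1 was -0.80. Members past 1.5-fold with normexp were 8 higher and 1 lower in L9 and 6 higher and 0 lower in L19, 28 lay below NTG in L9 and 21 in L19, and limma called 5328 features higher and 2289 lower, among them 40 members higher and 8 lower. Normexp also moved the median of the bright features to 0.44. The cause was not tested.

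By limma 0 features and 0 members passed under the blank correction. In the upper 50% of signal it called 1249 features higher and 1286 lower (5 and 33 members), in the upper 10% 310 and 357 (4 and 38 members), and with trend and robust estimation 1832 and 1674 (7 and 43 members). In the upper 10% no member was over 1.5-fold in L19 (0) and the complex I median was -0.27. Without spots over 30000 the complex V median was -0.44. At a 2-fold cutoff 3 members were lower in L9, 1 was lower and 0 higher in L19. No share over all features is set beside the fold-cutoff counts with loess, with normexp or at 2-fold. These counts describe the members only. Each line alone gave -0.22 and -0.17 for complex I and -0.51 and -0.43 for complex V, a value with no test. Each ratio already sets TG against NTG on the same array. No paired analysis was possible because no groups of separate samples share replicate numbers, the NTG RNA having no array of its own.

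Signal limits what can be read of Cox6b2, Cox7b2, Ndufa3, Ndufb2 and Ndufc1, the dimmest members named, and the 2 brightest members enter the range where the scanner writes whole numbers. The absence of a dye swap, the NTG RNA of a single label and the number of arrays limit all ratios.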
